A study of Mus musculus with 10 samples.

Results

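The liver enzymes described here break down amino acids, or closely related nitrogen compounds, for fuel and for new glucose. The set was defined by name and has 10 members: Tat, Sds, Sdsl, Prodh, Tdo2, Hal, Gls2, Agxt, Aass and Etnppl. Of these, 7 had a probe set with their symbol alone, among 22180 genes named in this way, and all 7 passed the filter on dim probe sets. Each of the 7 was read by 1 probe set. Sds, Sdsl and Gls2 were not analysed here.

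Liver RNA of female BALB/cByJ mice aged 3 months was hybridised to 10 Affymetrix Mouse Gene 2.1 ST arrays, which read a transcript with probes along its exons. The mice were wild type for Pml or Pml knockout, and Pml encodes the scaffold protein of PML nuclear bodies. Fed mice ate ad libitum (2 arrays per genotype), and fasted mice had no food but had water for 6 h (3 arrays per genotype). The sources used here do not give the knockout allele or the hour of collection. Feeding was taken from the sample titles, because every sample carries the same note on food removal.

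In fasting, the liver takes up amino acids released by other tissues, removes their nitrogen and passes the carbon to gluconeogenesis and the citric acid cycle. Most of these routes begin with 1 committed enzyme, and several such enzymes are known from textbooks to respond to glucocorticoids, glucagon and insulin. Tdo2 opens the kynurenine route of tryptophan, Tat opens tyrosine breakdown, Aass opens lysine breakdown, Prodh opens proline breakdown and Hal opens histidine breakdown. Agxt moves the amino group of alanine or serine and clears glyoxylate. Etnppl splits phosphoethanolamine, which is not an amino acid, so it differs from the others in its class of substrate.

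All values below are log2 of the deposited array intensity, and differences are log2 differences unless a fold is named. Brightness depends on the probes, so levels of different genes were not set against each other. A gene was "called" where limma gave a Benjamini-Hochberg adjusted p under 0.05 over all 13942 genes tested. In whole liver, fewer cells of a type and less RNA per cell cannot be told apart. The labels do not say that each array is a separate animal, so p-values reflect only how these samples differ, which may be technical.

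Pml read 8.37 and 8.22 in fed wild type, 7.72, 7.50 and 8.13 in fasted wild type, 6.91 and 6.41 in fed knockout, and 6.05, 6.35 and 6.14 in fasted knockout. No knockout array overlapped a wild type array, and Pml was lower in knockout by limma in the fed (-1.63, SE 0.22, adjusted p = 0.0399) and the fasted state (-1.60, SE 0.18, adjusted p = 0.00434). The fed call was lost when any 1 of the 10 arrays was left out (adjusted p from 0.0582 to 0.263), while the fasted one held. The probe set may lie outside the deleted part. All 7 matched hepatocyte markers lay above the array median on every array, and none of 5 neutrophil markers did. Array medians ran from 43.5 to 47.5 on the linear scale, and correlations between arrays from 0.932 to 0.986, with no pair identical.

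Fasted knockout arrays did not form 1 group in their clock genes. Arntl, which encodes the clock activator BMAL1, read 4.60, 4.53 and 8.87 in fasted knockout replicates 1, 2 and 3, against 9.29, 9.04 and 9.16 in fasted wild type. Dbp, a clock output, ran the other way, at 10.05, 9.80 and 6.00 against 6.07, 6.58 and 6.64. A clock score was taken as the mean of 3 activators minus the mean of 7 repressors and outputs. It was -3.17, -2.85 and 2.38 in the fasted knockout arrays and 2.68, 1.99 and 2.44 in fasted wild type. Fed arrays read -0.62 and -1.24 in wild type and -2.11 and -2.29 in knockout. Fasted knockout replicates 1 and 2 therefore lay below every fed array and replicate 3 lay within the range of fasted wild type. Called differences that rest on fasted knockout liver are given below with replicates 1 and 2 and without them, except for the cell marker Stab1.

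The promoters of the 4 members that were called for fasting in wild type are shown to place those genes in the genome. They come from RefSeq (GRCm38.p6), run 5′ to 3′ on the gene's strand and end at the base before the annotated gene. All 7 tested members matched the table. The Aass sequence lies at chr6:23132987-23133236 on the minus strand, that of Tdo2 at chr3:81975729-81975978 on the minus strand, that of Prodh at chr16:18089284-18089440 on the minus strand and that of Etnppl at chr3:130617198-130617447 on the plus strand. Capitals mark letters that match a searched motif.
Aass: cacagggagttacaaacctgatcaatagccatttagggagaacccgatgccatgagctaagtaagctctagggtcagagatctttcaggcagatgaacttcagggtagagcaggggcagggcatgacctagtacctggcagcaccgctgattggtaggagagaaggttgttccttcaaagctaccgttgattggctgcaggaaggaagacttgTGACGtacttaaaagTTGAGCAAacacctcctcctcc
Tdo2: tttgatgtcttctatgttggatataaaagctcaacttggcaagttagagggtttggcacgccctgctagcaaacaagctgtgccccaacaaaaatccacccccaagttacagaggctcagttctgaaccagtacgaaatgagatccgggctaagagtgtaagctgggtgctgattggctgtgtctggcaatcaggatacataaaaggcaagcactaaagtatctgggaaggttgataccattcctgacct
Prodh: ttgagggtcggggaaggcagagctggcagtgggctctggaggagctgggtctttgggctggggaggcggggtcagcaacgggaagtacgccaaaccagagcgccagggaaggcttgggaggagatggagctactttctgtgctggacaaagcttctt
Etnppl: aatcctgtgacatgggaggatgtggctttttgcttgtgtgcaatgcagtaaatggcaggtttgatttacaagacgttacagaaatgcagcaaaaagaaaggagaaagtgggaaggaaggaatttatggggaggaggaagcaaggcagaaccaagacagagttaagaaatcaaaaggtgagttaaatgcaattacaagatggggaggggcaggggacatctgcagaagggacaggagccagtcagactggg
Motifs were searched on both strands in the 250 bases before each start. The letters were AGAACA for a glucocorticoid receptor site (and, for the full site, AGAACA followed after 3 bases by its reverse complement), GTAAACA for FOXO factors, TGACG for the core of a cAMP response element, CACGTG for an E-box, TTATGTAA for a D-box, and TTGCNNAA for C/EBP factors. The shorter glucocorticoid letters lie within the full ones. Of the 4 printed promoters, Aass held TGACG from -37 to -33 and a C/EBP match from -22 to -15, and Tdo2, Prodh and Etnppl held no match. Among the other members, Agxt held the shorter glucocorticoid letters from -129 to -124 and Hal held a C/EBP match from -150 to -143. These letters were common in 32817 RefSeq windows of the same length, with TGACG in 17.7%, AGAACA in 16.1% and the C/EBP letters in 9.57%. The other motifs were in 6.02% (E-box), 3.16% (FOXO), 0.817% (D-box) and 0.00914% (full glucocorticoid site) of the windows. A match is a description of letters, not of binding.

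In wild type liver, food removal was accompanied by higher Aass and Tdo2 and by lower Prodh and Etnppl. Among the 7 members, 2 were called higher, 2 lower and 3 were not called. Of all genes tested, 21.4% were called, 8.23% higher and 13.2% lower. The median difference was -0.27 over the 7 members and -0.02 over all genes. The members thus did not move as a block, and enzymes that open the routes of lysine and tryptophan moved against the enzyme that opens the route of proline.

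Aass encodes the mitochondrial enzyme that carries lysine through saccharopine to aminoadipic semialdehyde. It read 11.37 and 11.44 in fed and 12.44, 12.18 and 12.01 in fasted wild type. Each fasted array lay above both fed arrays, and Aass rose by 0.80 (SE 0.19, 95% interval 0.37 to 1.23, 1.74-fold, limma adjusted p = 0.0166). The call ended without fed wild type replicate 1 (adjusted p = 0.0968) or replicate 2 (adjusted p = 0.0598).

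Tdo2 encodes the haem enzyme that opens the indole ring of tryptophan. It read 11.82 and 11.74 in fed and 12.15, 12.17 and 12.13 in fasted wild type. The fasted arrays were tightly grouped above the fed ones, and Tdo2 rose by 0.37 (SE 0.10, 95% interval 0.14 to 0.59, 1.29-fold, adjusted p = 0.0287). The call ended without any 1 of the 5 wild type arrays (adjusted p from 0.0634 to 0.136).

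Tat encodes tyrosine aminotransferase, a textbook target of glucocorticoids in liver. It read 12.49 and 12.59 in fed and 12.71, 12.79 and 12.68 in fasted wild type. The groups did not overlap, but the difference of 0.19 (SE 0.14, 95% interval -0.12 to 0.49) was not called (adjusted p = 0.367).

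Prodh encodes proline dehydrogenase of the mitochondrial inner membrane. It read 10.13 and 9.93 in fed and 9.56, 9.44 and 9.32 in fasted wild type. All 3 fasted arrays lay below both fed arrays, and Prodh fell by 0.59 (SE 0.11, 95% interval of the difference -0.84 to -0.33, 1.50-fold lower, adjusted p = 0.00654). Omitting fed wild type replicate 1 ended the call (adjusted p = 0.0646), and omitting any other array did not.

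Etnppl encodes ethanolamine-phosphate phospho-lyase, which gives acetaldehyde, ammonia and phosphate. It read 10.57 and 10.28 in fed and 9.85, 9.31 and 8.79 in fasted wild type. The fasted arrays were lower and spread widely, and Etnppl fell by 1.11 (SE 0.30, 95% interval of the difference -1.78 to -0.44, 2.16-fold lower, adjusted p = 0.0273). The call ended without fed replicate 1 (0.161) or 2 (0.0661), or without fasted replicate 2 (0.0655) or 3 (0.0702), each value being an adjusted p.

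Agxt, the glyoxylate-clearing aminotransferase, read 10.65 and 10.40 in fed and 10.32, 9.95 and 10.34 in fasted wild type. The groups did not overlap, and the difference of -0.32 (SE 0.14, 95% interval -0.63 to -0.01) was not called (adjusted p = 0.128). Hal, which removes ammonia from histidine, read 11.38 and 11.13 in fed and 11.18, 10.83 and 10.94 in fasted wild type. Its groups overlapped, and the difference of -0.27 (SE 0.15, 95% interval -0.62 to 0.07) was not called (adjusted p = 0.232). Counting separation alone, 3 of 7 members were higher on every fasted array and 3 were lower. Of all genes, 52.7% were separated in these 5 arrays, 23.0% higher and 29.7% lower.

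**Figure D1:**
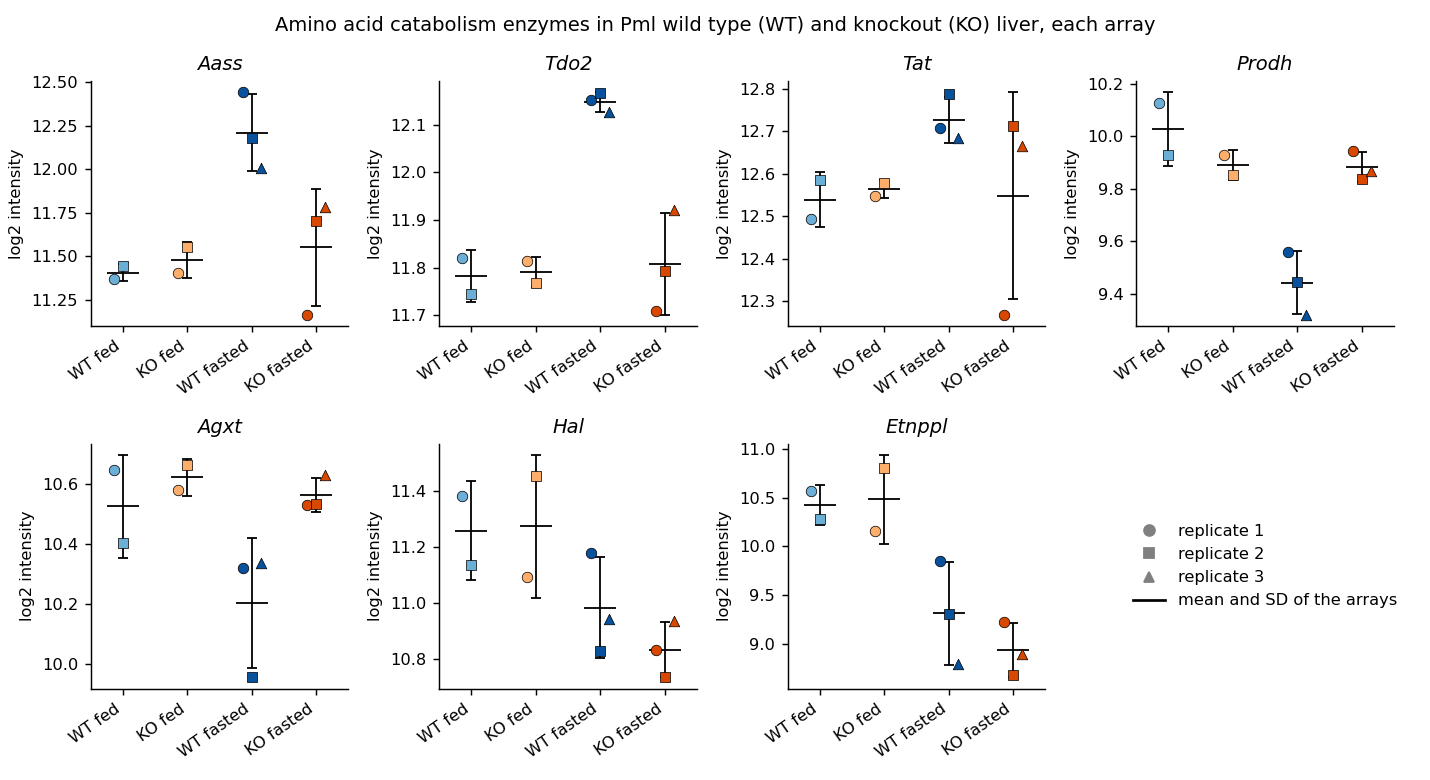
Log2 array intensity (vertical axis) of the 7 members in each of the 10 arrays, by genotype and feeding state on the horizontal axis. Points are arrays, marker shape gives the replicate number, and lines give the group mean and SD. In fasted wild type, Aass and Tdo2 lie above and Prodh and Etnppl lie below both fed wild type arrays.

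In knockout liver the same food removal gave 1 call among the 7 members, Etnppl, which was lower. Of all genes, 1.68% were called in this contrast, 0.811% higher and 0.868% lower, and 36.8% were separated, 18.3% higher and 18.5% lower. Etnppl read 10.16 and 10.81 in fed and 9.23, 8.68 and 8.89 in fasted knockout. Every fasted array lay below both fed arrays, and Etnppl fell by 1.55 (SE 0.30, 95% interval of the difference -2.22 to -0.88, 2.93-fold lower, adjusted p = 0.0440). This change was larger in size than that of 99.6% of genes. The adjusted p passed 0.05 in 9 of 10 omissions of 1 array (0.0548 to 0.279). Without fasted knockout replicates 1 and 2 the fall was as large (-1.59), with an adjusted p of 0.0995.

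Hal was also separated in knockout, at 11.09 and 11.45 fed and 10.83, 10.73 and 10.93 fasted. Its difference of -0.44 (SE 0.15, 95% interval -0.78 to -0.10) was not called (adjusted p = 0.164). The 5 other members had differences near 0. Aass read 11.41 and 11.55 fed and 11.17, 11.70 and 11.78 fasted, so the fasted arrays lay on both sides of the fed ones (0.07, 95% interval -0.36 to 0.50, adjusted p = 0.876).

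Tdo2 read 11.81 and 11.77 fed and 11.71, 11.79 and 11.92 fasted in knockout (0.02, 95% interval -0.21 to 0.24, adjusted p = 0.945). Prodh read 9.93 and 9.85 fed and 9.95, 9.84 and 9.87 fasted (-0.01, 95% interval -0.26 to 0.24, adjusted p = 0.981). In both genes fed and fasted arrays overlapped. Agxt read 10.58 and 10.67 fed and 10.53, 10.53 and 10.63 fasted (-0.06, 95% interval -0.37 to 0.25, adjusted p = 0.859). Tat read 12.55 and 12.58 fed and 12.27, 12.71 and 12.66 fasted (-0.02, 95% interval -0.32 to 0.29, adjusted p = 0.964). The lowest Tat and Aass readings of the whole series were both in fasted knockout replicate 1.

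The fasted knockout array with a wild type clock score, replicate 3, was set alone against the fed knockout arrays. The differences were then 0.30 for Aass, 0.13 for Tdo2, 0.10 for Tat, 0.01 for Agxt, -0.02 for Prodh and -0.34 for Hal. None was called (adjusted p from 0.423 to 0.989), and this single array was assumed to vary like the arrays of the other groups.

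**Figure D2:**
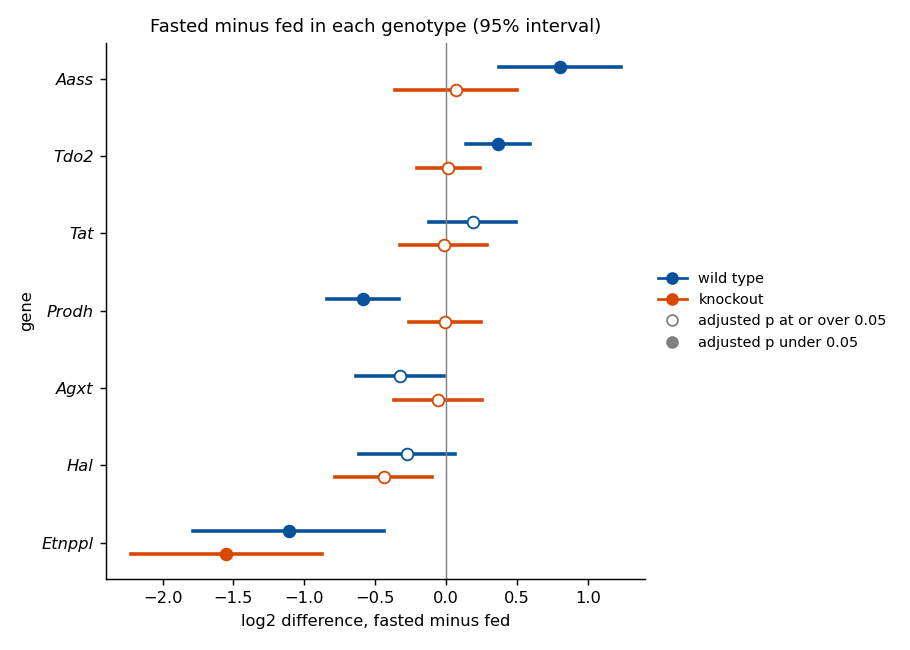
Fasted minus fed difference in log2 intensity (horizontal axis) for the 7 members in wild type and in knockout liver. Points are limma estimates, bars are 95% intervals, and filled points have an adjusted p under 0.05. Aass, Tdo2, Prodh and Etnppl are filled in wild type, and Etnppl is filled in knockout.

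A call in wild type and none in knockout does not show that the fasting responses differ, so the genotype by fasting interaction was tested. It was called for 0 of 7 members by limma, while 2.11% of all genes were called (1.32% higher and 0.789% lower in knockout). At an unadjusted p under 0.05 there were 3 of 7 members and 20.1% of all genes. Prodh had the smallest adjusted p of the members, with a fasting difference 0.58 higher in knockout than in wild type (SE 0.16, 95% interval 0.22 to 0.93, unadjusted p = 0.00482, adjusted p = 0.0943). For Aass the fasting difference was 0.73 smaller in knockout (-0.73, SE 0.27, adjusted p = 0.176), and for Tdo2 0.35 smaller (-0.35, SE 0.14, adjusted p = 0.210). In these 3 genes every fasted-minus-fed pair of knockout arrays lay outside the values of all wild type pairs, above them for Prodh and below them for Aass and Tdo2. That held for 22.4% of all genes, 13.5% above and 8.90% below. The values were -0.44 for Etnppl (SE 0.43, adjusted p = 0.602), 0.26 for Agxt (SE 0.20, 0.488), -0.20 for Tat (SE 0.19, 0.597) and -0.17 for Hal (SE 0.22, 0.711). Prodh was called when the moderation allowed for a trend with brightness and for outlying variances (adjusted p = 0.0412). With fasted knockout replicates 1 and 2 omitted the values were 0.56 for Prodh, -0.50 for Aass and -0.23 for Tdo2 (adjusted p = 0.206, 0.317 and 0.460).

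Fed knockout and fed wild type liver did not differ by a called amount in any member. The count was 0 of 7 by limma and 0 of 7 at an unadjusted p under 0.05, while 1203 genes overall reached that unadjusted level and 0.0861% were called (0.0574% higher and 0.0287% lower in knockout). No member was separated between the genotypes, while 39.9% of all genes were, 16.2% higher and 23.7% lower. Differences ran from -0.14 for Prodh (95% interval -0.41 to 0.14) to 0.10 for Agxt (95% interval -0.24 to 0.44). The widest interval was that of Etnppl, at -0.68 to 0.80 around 0.06, so a change of moderate size in either direction was not detectable there. The narrowest was that of Tdo2, at -0.24 to 0.25 around 0.01.

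After 6 h without food, knockout liver had higher Prodh and lower Aass and Tdo2 than wild type liver. That is 1 of 7 members called higher and 2 called lower, against 6.68% and 4.43% of all genes, or 11.1% together. This comparison shares its 3 wild type arrays with the wild type fasting comparison above, so the values are not independent of it. Prodh was 0.44 higher in knockout (SE 0.10, 95% interval 0.22 to 0.67, 1.36-fold, adjusted p = 0.0261), and its 3 knockout arrays (9.84 to 9.95) lay above all 3 wild type arrays (9.32 to 9.56). Replicate 3, whose clock score was that of fasted wild type, read 9.87 and so lay between the other knockout arrays. Without replicates 1 and 2 the Prodh difference was 0.42, with an adjusted p of 0.200.

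Aass was lower in fasted knockout (-0.66, SE 0.17, 95% interval -1.04 to -0.27, 1.58-fold lower, adjusted p = 0.0387), with knockout arrays from 11.17 to 11.78 and wild type arrays from 12.01 to 12.44. Tdo2 was lower by a smaller amount (-0.34, SE 0.09, 95% interval -0.54 to -0.14, 1.27-fold lower, adjusted p = 0.0404), with knockout arrays from 11.71 to 11.92 and wild type arrays from 12.13 to 12.17. In both genes replicate 3 was the knockout array closest to wild type. Without replicates 1 and 2 the differences shrank to -0.42 for Aass (adjusted p = 0.271) and -0.23 for Tdo2 (adjusted p = 0.357).

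The Prodh call ended without wild type replicate 2 (0.0643) or 3 (0.0913), or without knockout replicate 1 (0.0914). The Aass and Tdo2 calls each held in 1 of 10 omissions, that of knockout replicate 3, with adjusted p from 0.0507 to 0.114 and from 0.0544 to 0.133 in the others.

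Agxt was separated, with knockout arrays from 10.53 to 10.63 above wild type arrays from 9.95 to 10.34, but its difference of 0.36 (SE 0.12, 95% interval 0.08 to 0.64) was not called (adjusted p = 0.0891). It was called with the moderation that allows for trend and outlying variances (adjusted p = 0.0387). Etnppl (-0.38, SE 0.27, adjusted p = 0.385), Hal (-0.15, SE 0.14, adjusted p = 0.509) and Tat (-0.18, SE 0.12, adjusted p = 0.372) were not called either. Between the fasted genotypes 4 of the 7 members were separated, 2 higher and 2 lower, against 33.0% of all genes, 17.9% higher and 15.1% lower.

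**Figure D3:**
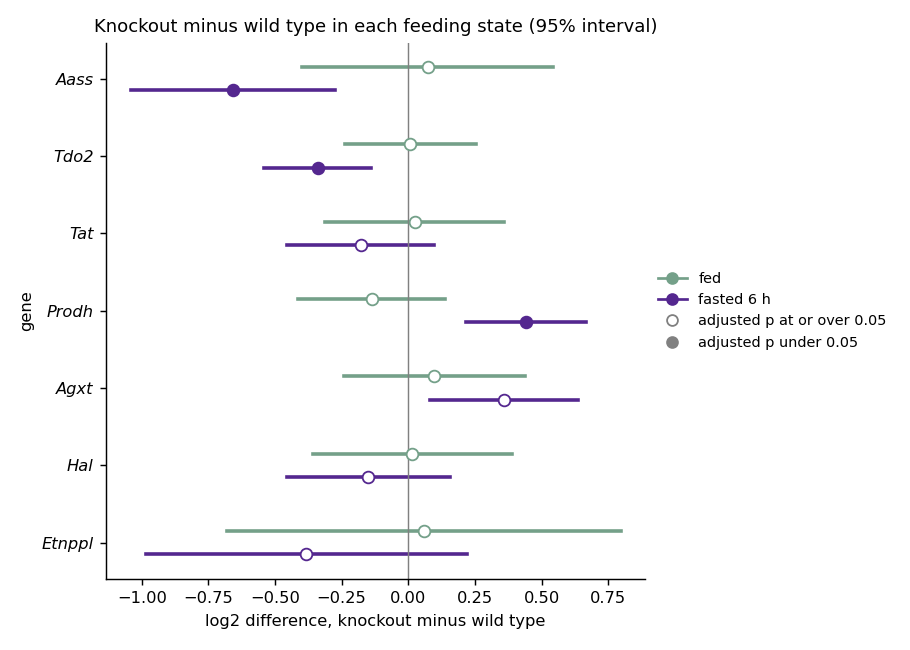
Knockout minus wild type difference in log2 intensity (horizontal axis) for the 7 members in fed and in fasted liver. Points are limma estimates, bars are 95% intervals, and filled points have an adjusted p under 0.05. No fed difference is filled, and in the fasted state Prodh is filled above 0 and Aass and Tdo2 below 0.

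Other values moved with the fasted genotype difference. Summed intensity of 8 macrophage markers was 3649 to 4173 in fasted knockout and 3019 to 3200 in fasted wild type, against 3298 to 4029 in fed wild type and 3466 to 3748 in fed knockout. All 8 lay above the array median on every array, and 4 of 8 were called higher in fasted knockout, against 6.68% of all genes. They were Adgre1 (0.54, adjusted p = 0.0118), which encodes the F4/80 antigen, Csf1r (0.38), Cd5l (0.65) and Cd68 (0.36). With 1 array left out, the Adgre1 call held in 10 of 10 fits, those of Csf1r and Cd5l in 3 and that of Cd68 in 0. Without fasted knockout replicates 1 and 2 none of the 4 was called (adjusted p from 0.116 to 0.244), and the Adgre1 difference was 0.58. Summed pericentral hepatocyte markers (11 genes) were 22466 to 23359 in fasted knockout and 19770 to 21395 in fasted wild type. Of these 11, only Lgr5 was called between the fasted genotypes (9.09%, against 11.1% of all genes). Sums of 9 periportal, 7 sinusoidal endothelial and 6 stellate cell markers overlapped between the fasted genotypes. Of the 7 endothelial markers, only Stab1 was called, and it was lower in fasted knockout (-0.44, limma adjusted p = 0.0381). That is 14.3%, against 11.1% of all genes. A fit of Stab1 without fasted knockout replicates 1 and 2 is not given here. Sums of 4 cholangiocyte markers were 279.9 to 307.5 in fasted wild type and at most 267.5 in the other groups. Sums of 6 lymphocyte markers were 287.1 to 305.2 in fasted knockout and 219.1 to 265.2 in fasted wild type, and those of 3 pancreas markers 124.5 to 152.9 and 81.3 to 118.0. At most 3 lymphocyte and 2 pancreas markers lay above the array median on any array. None of 4 tested cholangiocyte, 3 tested lymphocyte and 2 tested pancreas markers was called between the fasted genotypes, against 11.1% of all genes. The part of these cell markers in the differences of the members was not tested.

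With the clock score added to the model as a covariate, the fasted genotype difference was 0.44 for Prodh, as without it, and moved to -0.41 for Aass and to -0.22 for Tdo2. None of the 3 was then called (adjusted p = 0.181, 0.380 and 0.375). Fasting in wild type moved from 0.80 to 0.57 for Aass (adjusted p = 0.142) and from 0.37 to 0.26 for Tdo2 (adjusted p = 0.212) and stayed at -0.58 for Prodh (adjusted p = 0.0468). The score was computed from the same arrays and follows the groups in part, so these values do not separate the clock genes from genotype or feeding.

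**Figure D4:**
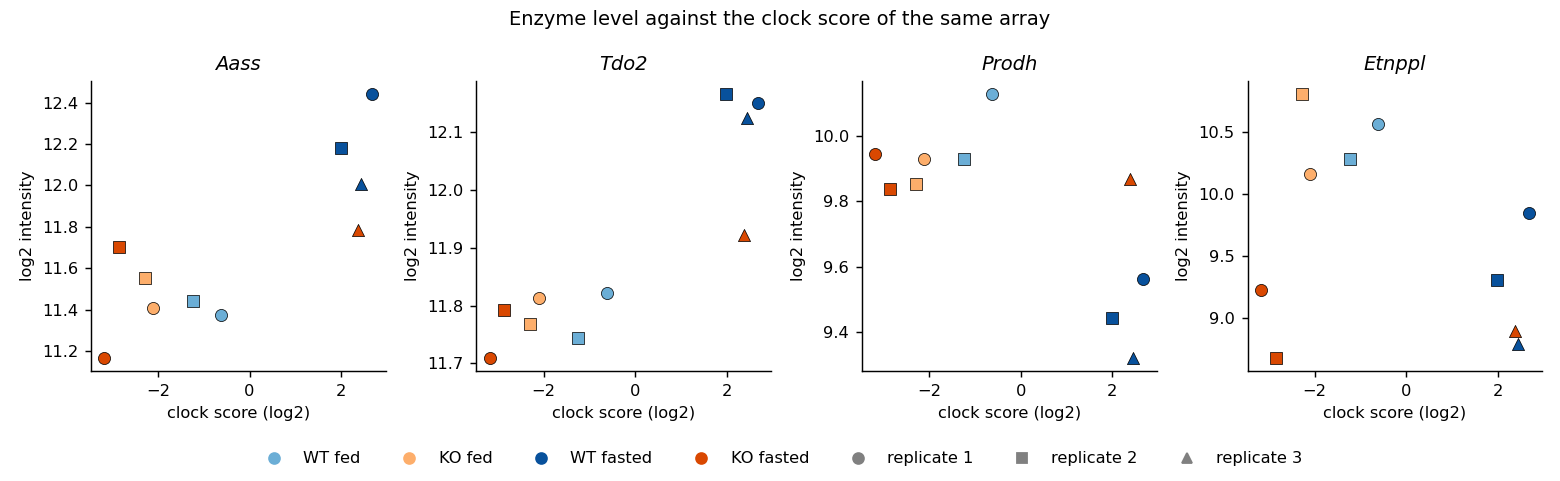
Log2 intensity of members (vertical axes) against the clock score of the same array, the mean log2 of 3 activators minus that of 7 repressors and outputs (horizontal axes). Each point is 1 array, colour gives the group and marker shape the replicate. Fasted knockout replicate 3 has a clock score of 2.38, among the fasted wild type arrays, and fasted knockout replicates 1 and 2 lie at -3.17 and -2.85.

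Other enzymes of amino acid breakdown were, on the deposited scale, called only in the direction of Prodh after food removal in wild type, and 2 were called in the other direction when arrays were centred on their medians. Of 69 tested, 0 were called higher, 15 (21.7%) lower and 54 were not called, against 8.23% higher and 13.2% lower among all genes. Their median was -0.22, with 84.1% of them below 0 and 52.2% of all genes below 0. The largest share was in the proline and hydroxyproline group, where 3 of 4 were called lower. Hoga1, which cleaves the last intermediate of hydroxyproline breakdown, differed by -0.91 (adjusted p = 0.00137), Prodh2, the hydroxyproline dehydrogenase, by -0.43 (adjusted p = 0.0168) and Aldh4a1, a dehydrogenase that both routes share, by -0.41 (adjusted p = 0.0470). Leaving out 1 array in turn, the call held in 10 of 10 fits for Hoga1, 7 for Prodh2 and 2 for Aldh4a1.

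In the serine, glycine and threonine group 5 of 10 were called lower. They included Gcsh (-0.56, adjusted p = 0.00399) and Amt (-0.66, adjusted p = 0.0253) of the glycine cleavage system, and the serine hydroxymethyltransferases Shmt1 (-0.55, adjusted p = 0.00508) and Shmt2 (-0.51, adjusted p = 0.00817). Gcsh and Shmt1 kept their calls in 10 of 10 such fits. Of the aromatic amino acid group 3 of 11 were called lower: Ido2 (-0.64), which like Tdo2 opens the tryptophan ring, Haao (-0.43), further along the kynurenine route, and Qdpr (-0.46), which recycles the cofactor of phenylalanine hydroxylase. Ido2 and Tdo2 thus moved in opposite directions in the same arrays, and Ido2 was called in 6 of 10 fits with 1 array left out.

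Ethe1, which oxidises sulfur from cysteine, had the largest called fall of these enzymes (-1.14, adjusted p = 0.00111) and was 1 of 5 called in the sulfur group. Its call held in 10 of 10 omissions. The remaining calls were Agxt2 (-0.44) and Bcat2 (-0.65) among 11 aminotransferases and Ivd (-0.45), of leucine breakdown, among 18 branched-chain enzymes, of which the Bcat2 call held in 1 of 10 omissions. None of 4 lysine, 3 histidine and 3 glutamine, glutamate or asparagine enzymes was called by limma. At an unadjusted p under 0.05 there were 1 of 4, 2 of 3 and 1 of 3, against 35.3% of all genes. Aass was thus called higher in a route whose 4 other tested members were not called and had a median of -0.18. Centring each array on its median moved the median of all genes in this contrast from -0.02 to 0.08, and the 69 enzymes then had 2 called higher and 10 lower, with a median of -0.12. Omitting fed wild type replicate 1 left 4 called, omitting fed replicate 2 left 8, and omitting fasted wild type replicate 2 or 3 left 6 or 7.

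In knockout, 0 of the 69 were called by limma for fasting, and 14 (20.3%) had an unadjusted p under 0.05, as had 19.2% of all genes. The 69 enzymes had a median of -0.14 with 76.8% below 0, against 49.0% of all genes. In the fed state 0 of 69 were called between genotypes by limma, where 0.0861% of all genes were. At an unadjusted p under 0.05 there were 0 of 69, against 8.63% of all genes. In the fasted state 4 (5.80%) were called higher in knockout and 1 (1.45%) lower, which are smaller shares than the 6.68% and 4.43% of all genes. Their median was 0.11, against 0.01 for all genes. The higher ones were Ethe1 (0.78, adjusted p = 0.00959), Hoga1 (0.67, adjusted p = 0.00935), Shmt2 (0.50, adjusted p = 0.0125) and Gcsh (0.42, adjusted p = 0.0180), which, like Prodh, were lower after fasting in wild type. The lower one was Gldc (-0.82, adjusted p = 0.0429), the decarboxylase of glycine cleavage, whose call held in 1 of 10 omissions. Gldc read 9.50, 9.63 and 10.49 in fasted knockout and 10.73, 10.57 and 10.80 in fasted wild type. Its difference without fasted knockout replicates 1 and 2 was -0.21 (adjusted p = 0.489).

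Hoga1 read 10.32 and 10.25 in fed wild type and dropped to 9.47, 9.38 and 9.27 with fasting. In knockout it read 10.34 and 10.40 fed, and 10.23, 10.01 and 9.88 fasted. Its 3 fasted knockout arrays lay between the fed and the fasted wild type arrays. Without fasted knockout replicates 1 and 2 none of the 69 was called between the fasted genotypes, with adjusted p of 0.124 for Hoga1, 0.0882 for Ethe1, 0.161 for Shmt2 and 0.157 for Gcsh.

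**Figure D5:**
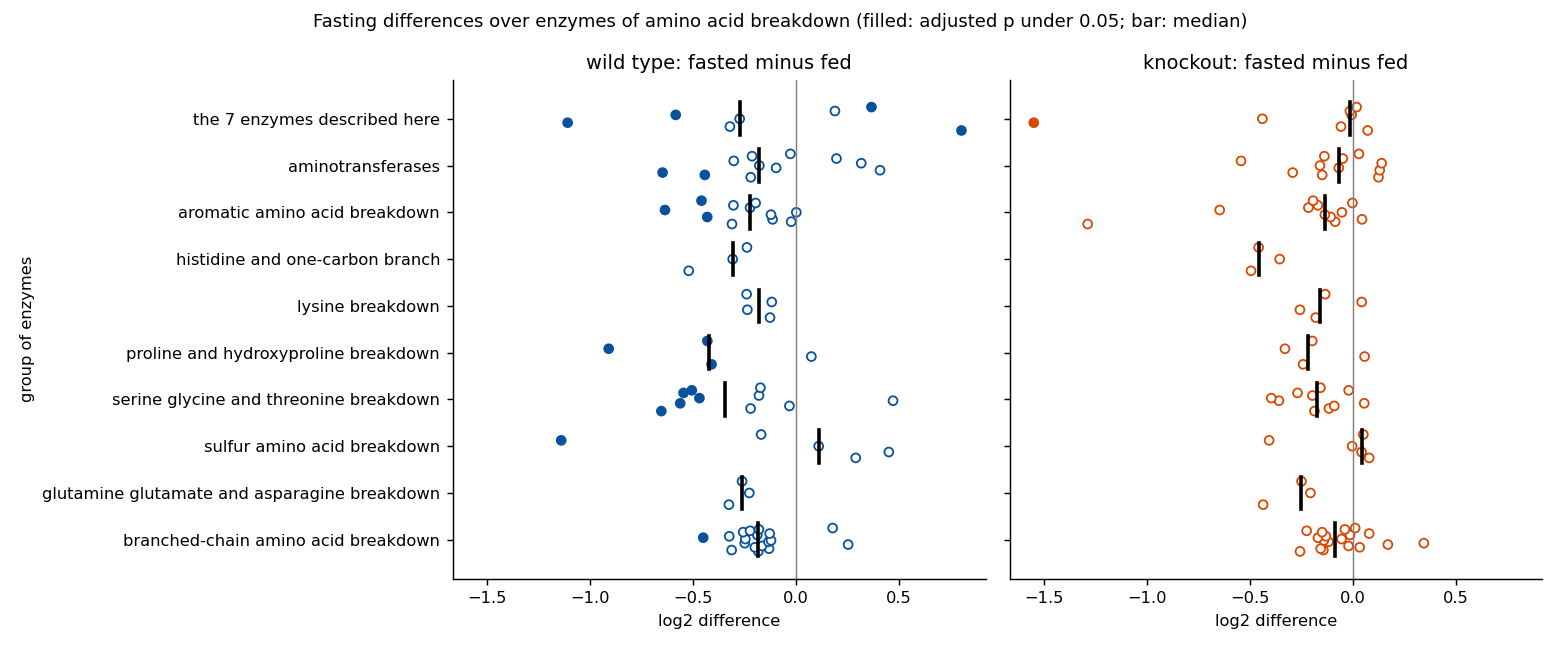
Fasted minus fed difference in log2 intensity (horizontal axes) for each tested enzyme of amino acid breakdown, grouped by route (vertical axis), in wild type and in knockout liver. Points are genes, filled where the adjusted p was under 0.05, and short bars are group medians. Apart from the members, filled points in wild type all lie below 0 (with centred arrays 2 enzymes are called above 0), and in knockout the filled point is Etnppl.

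Among 16 tested regulators of these genes, 7 were called higher and 2 lower after food removal in wild type (56.2%, against 21.4% of all genes). In knockout 0 were called by limma (1.68% of all genes), with 4 at an unadjusted p under 0.05 (19.2% of all genes). Between the fed genotypes 0 were called by limma (0.0861% of all genes), with 6 at an unadjusted p under 0.05 (8.63% of all genes). A called interaction was found for 3 (18.8%, against 2.11% of all genes), and each was lost without fasted knockout replicates 1 and 2. The list of regulators was chosen with earlier results of these data known, so these shares describe it and do not test enrichment. Fkbp5, a glucocorticoid receptor target and co-chaperone, was 2.59 higher in fasted wild type (adjusted p = 0.000318). Cebpb (1.91, adjusted p = 0.000587), Foxo1 (1.13, adjusted p = 0.000779) and Creb3l3 (0.52, adjusted p = 0.00504), which encode transcription factors active in the fasted liver, were also higher. The 2 regulators called lower were Cebpa (-0.53, adjusted p = 0.0190) and Foxa2 (-0.70, adjusted p = 0.0249).

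Foxo1 read 9.29 and 9.11 in fed and 10.25, 10.33 and 10.42 in fasted wild type, against 9.88 and 9.83 in fed and 9.51, 9.91 and 9.79 in fasted knockout. Fed knockout thus lay above fed wild type, and fasted knockout lay below fasted wild type (-0.60, adjusted p = 0.0170). Fkbp5 was also lower in fasted knockout than in fasted wild type (-0.91, adjusted p = 0.0261). Without fasted knockout replicates 1 and 2 these differences were -0.54 for Foxo1 (adjusted p = 0.122) and -0.72 for Fkbp5 (adjusted p = 0.251), and with 1 array left out the calls held in 8 and 6 of 10 fits. Klf15, a regulator of amino acid breakdown, read 9.73 and 9.69 in fed and 9.24, 9.69 and 9.32 in fasted wild type. Its knockout arrays read 9.93 and 10.00 fed, and 9.51, 9.90 and 9.55 fasted, and Klf15 was not called in any contrast. Of 11 amino acid transporters, Slc38a2, the neutral amino acid carrier SNAT2, was the only one called for fasting in wild type (0.69, adjusted p = 0.0166). That is 9.09%, against 21.4% of all genes, and the Slc38a2 call held in 7 of 10 fits with 1 array left out.

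For each member the 3 genes with the most similar log2 profile over the 10 arrays were listed by Pearson's r, as a description. These arrays share the same groups, so any gene that follows the groups can reach a high r. Prodh was closest to Abhd12 (r = 0.989), Lrrc40 (r = 0.989) and Ndc1 (r = 0.983), and Tdo2 to Tecpr2 (r = 0.984), Rhob (r = 0.979) and Aebp2 (r = 0.973). Aass was closest to Ncoa4 (r = 0.972), Ranbp9 (r = 0.967) and the urea cycle gene Asl (r = 0.965).

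Hal was closest to the amino acid transporter subunit Slc3a1 (r = 0.985), followed by Zfhx4 (r = 0.947) and Pomt1 (r = 0.943), and Agxt to Shisa5 (r = 0.972), Bbs9 (r = 0.969) and Ttll13 (r = 0.960). Etnppl was closest to Sdha (r = 0.968), a subunit of succinate dehydrogenase, then to Fam210a (r = 0.951) and Nt5c3 (r = 0.946). Tat had the lowest leading value, with N4bp2l2 (r = 0.950), Trib2 (r = 0.940) and Ttll10 (r = 0.940). No member was among the leading 3 of another, since members were left out of the search.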

How the data were processed

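The deposited table gives a linear intensity for every probe set on every array, made by the authors with RMA in Affymetrix Expression Console, per the submitters' processing notes. Each array holds 228 to 489 values under 0.1, which are rare in RMA output, so how the values were summarised is uncertain. No version, library file or genome build is given in the sources used here. Of 41345 probe sets, 23521 carried 1 gene symbol in the platform annotation, 1814 several and 16010 none. The log2 of each intensity was taken with no further normalization. Probe sets above the array median on at least 2 arrays were kept (14617), and each gene was represented by its brightest kept probe set (13942 genes).

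Group means of the 4 groups were fitted with limma 3.58.1 (R 4.3.3) on all 10 arrays, with 5 contrasts and Benjamini-Hochberg adjustment over all genes. The code was tested on simulated data. The number of arrays limits the precision. Replicate numbers showed no sign of pairing the samples. Named outside the members were Pml, up to 4 called genes per list and contrast with the smallest p, the clock genes Arntl and Dbp, Klf15, and the 3 nearest genes per member. Cebpa and Foxa2 were added as the regulators called lower for fasting in wild type. Members and lists were chosen with earlier results of these data known. Alternatives covered scaling, filters, probe set choice, moderation, a replicate block, a clock covariate, fits of the compared groups alone and omission of arrays. Red blood cell markers were not analysed here.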

Additional observations from a re-analysis of the deposited data

Results flagged for a closer look

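The genotype by fasting interaction was called by limma for 4 named genes outside the 7 members, which is a tested difference between the fasting responses of the genotypes. The fasting difference was smaller in knockout for Fkbp5 (-1.64, adjusted p = 0.0426), Cebpb (-1.45, adjusted p = 0.0426) and Foxo1 (-1.25, adjusted p = 0.0265). Each of them read higher in fed knockout than in fed wild type, so these values hold a fed difference as well. Cebpb read 8.77 and 8.01 in fed knockout against 7.24 and 7.28 in fed wild type. After fasting it read 8.91, 8.91 and 8.71 in knockout against 9.30, 9.27 and 8.92 in wild type. Fkbp5 read 7.52 and 6.76 in fed knockout against 6.55 and 6.27 in fed wild type. With 1 array left out in turn, the interaction call held in 5 of 10 fits for Foxo1, 1 of 10 for Fkbp5 and 0 of 10 for Cebpb. For Lgr5, a pericentral marker, the interaction was 3.40 (SE 0.55, adjusted p = 0.0278). The fasted wild type arrays of Lgr5 read 4.52, 4.97 and 4.17, below the array median, so its size there is uncertain. The Lgr5 call held in 5 of 10 fits. Without fasted knockout replicates 1 and 2 the values were -1.45 for Fkbp5, -1.58 for Cebpb, -1.20 for Foxo1 and 3.01 for Lgr5, and none was called (adjusted p = 0.130, 0.108, 0.0650 and 0.0996).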

How the results depend on the processing

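Each called member difference kept its sign under all 20 alternatives. Members called for fasting in wild type fell from 4 to 2 with no filter, 2 with the replicate block and 1 with the clock score added to the model, and ran from 0 to 4 when 1 array was left out. For fasting in knockout the count of 1 became 0 with no filter, the replicate block, without fasted knockout 1 and 2, the clock covariate, or the compared groups alone (0 to 1 with 1 array left out). For the fasted genotypes the count of 3 became 0 with no filter, without fasted knockout 1 and 2, with the clock covariate or the compared groups alone, and 1 with the replicate block (0 to 3 with 1 array left out). The interaction count of 0 became 1 with trend and robust moderation. Over all genes, calls for fasting in wild type ran from 1269 to 3256, for fasting in knockout from 0 to 504, between fed genotypes from 0 to 24, between fasted genotypes from 6 to 1968 and for the interaction from 0 to 520. The cause was not tested.

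The fed Pml difference of -1.63 lost its call with no filter (adjusted p = 0.125), the replicate block (0.150), without fasted knockout 1 and 2 (0.0967), the clock covariate (-1.63, 0.0941) and the compared groups alone (0.386), and in 10 of 10 omissions (-1.88 to -1.38). The fasted one lost it without fasted knockout 1 and 2 (-1.65, 0.0708) and with the clock covariate (-1.60, 0.0558). Uncalled member differences near 0 turned sign. For fasting in knockout these were Prodh with centring (5e-04) and the replicate block (0.0273), Tdo2 with the replicate block (-0.0057) and the clock covariate (-0.0147), and Tat (0.10) and Agxt (0.0067) without fasted knockout 1 and 2. With 1 array left out, fasting in knockout ran from -0.10 to 0.12 for Tat, -0.0464 to 0.0321 for Prodh, -0.0395 to 0.0666 for Tdo2 and -0.0459 to 0.26 for Aass. Between fed genotypes the ranges were -0.022 to 0.0707 for Tat, -0.0304 to 0.0469 for Tdo2, -0.16 to 0.20 for Hal, -0.0249 to 0.22 for Agxt, -9e-04 to 0.15 for Aass and -0.26 to 0.38 for Etnppl. For the interaction it was -0.35 to 0.0147 for Hal.

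Replicate numbers showed no sign of pairing: 13 same-numbered pairs deviated together with r from -0.17 to 0.11, and 4 of 10 arrays were closest to their own number. The deviations of the 2 arrays in a fed group mirror each other, so this check cannot show that samples were unpaired. The block, which also uses up degrees of freedom, lowered the calls over all genes for fasting in wild type from 2990 to 2240. Counts of the other breakdown enzymes, chosen as a result after seeing the data, ran from 4 to 23 for fasting in wild type and from 0 to 12 between fasted genotypes. Fed groups of 2 arrays and dim probe sets limit what could be called.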
